A study of Mus musculus with 4 samples.

Results

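The TGF-beta and BMP pathway genes are 42 mouse genes for ligands, receptors, extracellular regulators, SMAD proteins, inhibitors and target genes of this signalling family, out of 21887 protein-coding genes on the assembled chromosomes. They were chosen by their place in the pathway, with earlier results of these data known. A member was counted as having a site where the centre of a listed peak of the glucocorticoid receptor (GR) lay in its gene span or within 25 kb of it. GR is the nuclear receptor that corticosterone, the main glucocorticoid of the mouse, activates. Where it sat on the genome was mapped by immunoprecipitating GR with its DNA and sequencing that DNA (ChIP-seq). The 33AP1C9 line used descends from the mouse mammary epithelial line C127, carries stable copies of an MMTV-pp7 reporter and makes the PP7 coat protein fused to GFP, so that every condition shares these additions. The cells had been kept in charcoal-dextran stripped serum and were then sampled without hormone (untreated) or after corticosterone at 600 nM for 1 h or 12 h. Each condition had 1 library. The labels give a mixture of GR antibodies in which the second catalogue number differs from sample to sample. These numbers go up in equal steps along the samples, the input included, so that whether the antibody itself changed cannot be read from the labels, and treatment and any such change cannot be told apart. Expression was not measured, so neither the cell type nor the activity of the genes could be checked here.

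In this family a secreted dimeric ligand (a TGF-beta, an activin or a BMP) brings together type I and type II receptor kinases, which phosphorylate receptor-regulated SMADs. These join SMAD4 and enter the nucleus. SMAD2 and SMAD3 serve the TGF-beta and activin branch, SMAD1, SMAD5 and SMAD9 the BMP branch, and SMAD6 and SMAD7 inhibit. In mammary epithelium TGF-beta is known as a brake on proliferation and as an inducer of matrix genes and of epithelial-mesenchymal transition.

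GR sites were listed near 7 of the 42 members at 12 h and near 16 at 1 h. This was 16.7% of the members at 12 h and 38.1% at 1 h, against 9.22% and 16.9% of all protein-coding genes. None was listed near a member in untreated cells, but that list held only 1 peak over the whole genome. Its count is therefore not a result about the members. Many members are long genes, and long genes hold more peaks. Genes were therefore split by span into 5 classes of equal size. The longest class, with spans over 57.1 kb, held 21 members, of which 4 had a 12 h peak (19.0%) and 11 a 1 h peak (52.4%), against 18.5% and 31.8% of all its genes. In the 4 shorter classes the shares of all genes were 4.18%, 6.54%, 7.2% and 9.76% at 12 h and 7.19%, 12.9%, 13.9% and 18.6% at 1 h, in order of length. The members with a peak there were 2 of 4, 1 of 7, 0 of 2 and 0 of 8 at 12 h, and 2 of 4, 2 of 7, 0 of 2 and 1 of 8 at 1 h. Each of these classes holds too few members for its share to be compared. If the members of each class had carried peaks at the share of that class, 5.42 members would have had one at 12 h and 9.64 at 1 h. The 12 h count was close to this, while the 1 h count lay above it. The 1 h difference rested on lower scoring peaks. Among peaks at or above the median score of their list, 5 members had one at 12 h (11.9%) and 6 at 1 h (14.3%), against 4.96% and 9.24% of all genes, and the class shares gave 2.96 and 5.41 members. Among these peaks both counts lay within a few members of the class shares, and no difference is read from them. With 1 library per condition no test of these counts was made. Both lists had a peak for 6 members (8.63% of all genes), at 12 h alone for 1 (0.599%) and at 1 h alone for 10 (8.27%).

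The 6 members with peaks at both times were Tgfb2, Tgfbr3, Ltbp1, Fst, Smad6 and Id3. Id1 had a peak at 12 h alone. Eng, Tgfbr2, Bmp7, Grem1, Ltbp2, Smad2, Smad3, Smurf1, Ski and Id2 had peaks at 1 h alone. Together these genes had 23 distinct sites, 9 at 12 h and 21 at 1 h, of which 7 were in both lists. Of the 23 sites, 12 lay inside the member's span and 11 outside, and for 3 (near Grem1, Ltbp2 and Ski) another protein-coding gene was nearer. The median member site held 22.8 tags at 12 h and 16.2 at 1 h, against 18.0 and 18.3 over all peaks of those lists. Here and below tags are scaled to a library of 10000000 tags, and untreated values at sites in both lists are counts in the 1 h window. Treated peaks were called against the untreated library at a fold of at least 6, so that every listed site stood above it by construction.

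**Figure D1:**
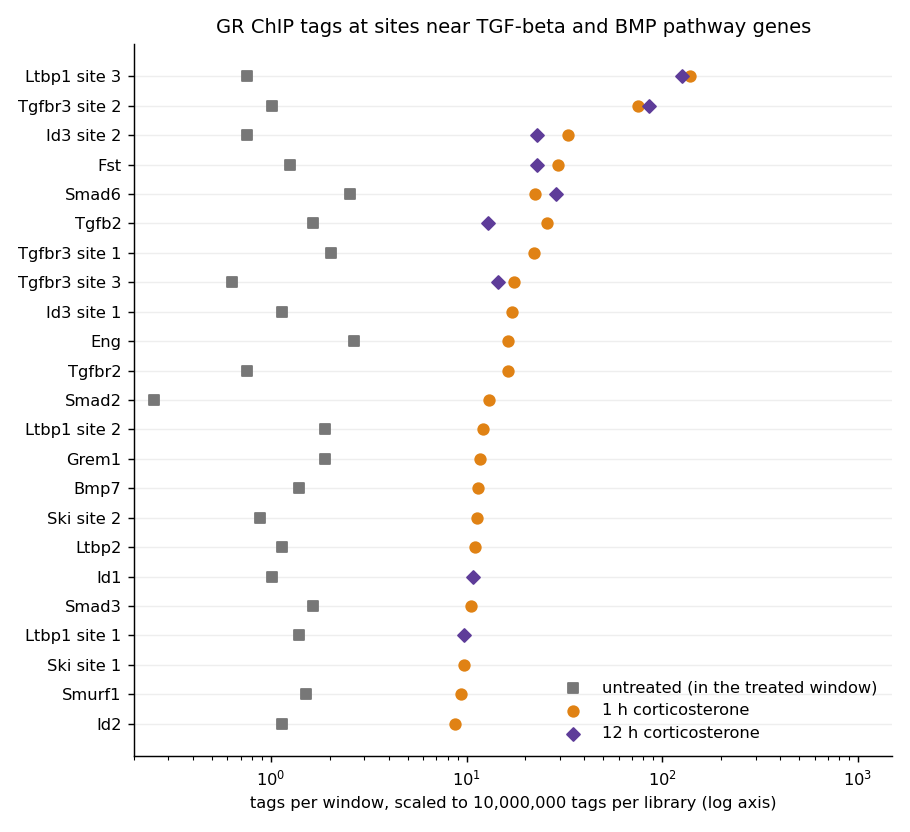
Normalised GR ChIP tags per window (horizontal log axis) at the 23 listed sites near pathway members, in untreated cells (grey squares, counted in the treated window), after 1 h (orange circles) and after 12 h (purple diamonds) of corticosterone, 1 library each. A time at which a site was not listed has no marker, and the Ski site with no marker for untreated cells had no whole tag in that library. The Ltbp1 and Tgfbr3 sites at the top held 75.2 to 138 tags, while the other sites held 33.0 or fewer.

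Among the extracellular regulators 2 of 5 members had a site at 12 h and 4 at 1 h. Ltbp1 encodes a latent TGF-beta binding protein that tethers the inactive ligand to the matrix. Its main site, inside the gene (mm10, chromosome 17, 75275402 to 75275684 in the 1 h list), held 0.758 tags in untreated cells, 138 after 1 h and 126 after 12 h. It was the strongest site of any member at both times and stood among the highest scoring 1.97% of the 1 h list. The caller's fold over the untreated library was 166 for the 12 h peak and 182 for the 1 h peak. On the log2 scale, 12 h tags over 1 h tags gave -0.13 (95% counting interval -0.25 to -0.02). This interval, like those below, is an exact binomial interval from the tags that covers counting error only and compares the libraries, not the conditions. Ltbp1 held 2 more sites, each near the caller's limits. One was listed at 12 h alone with 9.72 tags, at 75110867 to 75111169, where the untreated library held 1.39. The other was listed at 1 h alone with 12.1 tags, at 75204627 to 75204909, against 1.89 in untreated cells. The folds over the surrounding 10 kb were 6.38 at both of these sites, where 6 was required.

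Fst encodes follistatin, which binds and neutralises activins. Its site lay 5.12 kb from the gene span (chromosome 13, 114446998 to 114447280) and held 1.26 tags in untreated cells, 29.3 after 1 h and 22.8 after 12 h, a log2 ratio of -0.36 (-0.62 to -0.10). Grem1, a secreted BMP antagonist, had a site 23.3 kb upstream of its start and inside Scg5, with 11.7 tags at 1 h against 1.89 in untreated cells. Ltbp2, whose product associates with fibrillin microfibrils, had one 8.74 kb beyond its span and inside Isca2, with 11.0 tags at 1 h against 1.14 in untreated cells. Both of these peaks were weak and neither was listed at 12 h. Nog, which encodes the BMP antagonist noggin, had no site within 25 kb.

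Among the receptors and co-receptors 1 of 11 had a site at 12 h and 3 at 1 h (Tgfbr3, Tgfbr2 and Eng). Tgfbr3 encodes betaglycan, the co-receptor that presents TGF-beta to its type II receptor. Its main site, inside the gene (chromosome 5, 107219534 to 107219816), held 1.01 tags in untreated cells, 75.2 after 1 h and 85.7 after 12 h. The log2 ratio was 0.19 (0.04 to 0.34), and the 12 h peak stood 97.0-fold over the untreated library, the 1 h peak 74.5-fold. A weaker site inside the gene, at 107276207 to 107276489, held 0.631 tags in untreated cells, 17.4 after 1 h and 14.5 after 12 h. Its ratio of -0.26 (-0.60 to 0.07) was within counting error of no difference. A further site 19.1 kb outside the span was listed at 1 h alone, with 22.0 tags against 2.02 in untreated cells. Tgfbr3 thus had most sites at 1 h of any member, with 3, on a span of 183 kb.

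Tgfbr2, the type II receptor for TGF-beta, had a site inside its span (chromosome 9, 116152990 to 116153272), 22.2 kb downstream of the start, with 16.2 tags at 1 h against 0.758 in untreated cells. Eng encodes endoglin, a co-receptor best known from endothelium. Its site inside the gene also held 16.2 tags at 1 h, but against 2.65 in untreated cells, so that its fold of 6.12 only just passed the required 6. The remaining receptors, Tgfbr1, Acvr1, Acvr1b, Acvr2a, Acvr2b, Bmpr1a, Bmpr1b and Bmpr2, had no site within 25 kb at either time. Of these 8, peaks within 100 kb were listed at 1 h for Bmpr2 (34.5 kb away, 28.8 tags) and Acvr1b (39.0 kb away and nearest to Nr4a1, 18.4 tags). The peak nearest to Bmpr1b, 203 kb away and nearest to Pdlim5, held 345 tags at 12 h and 300.5 at 1 h.

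Among the ligands 1 of 9 had a site at 12 h and 2 at 1 h. Tgfb2, one of the 3 TGF-beta ligand genes, had a site 3.94 kb outside its span (chromosome 1, 186618707 to 186618989), at the end away from its start. It held 1.64 tags in untreated cells, 25.8 after 1 h and 12.8 after 12 h. The log2 ratio of -1.01 (-1.34 to -0.70) was the lowest of the 7 member sites in both lists. Bmp7, a BMP ligand gene active in epithelia, held 11.4 tags at 1 h in a site inside its span, against 1.39 in untreated cells. Tgfb1, Tgfb3, Bmp2, Bmp4, Bmp6, Inhba and Inhbb had none. The 1 h peak nearest to Bmp2 lay just outside the 25 kb limit, at 29.9 kb with 14.8 tags, and the peak nearest to Tgfb1 lay 76.4 kb away, nearest to Axl, with 53.7 tags at 12 h and 91.1 at 1 h.

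Among the SMAD genes 1 of 8 had a site at 12 h and 3 at 1 h. Smad6 encodes an inhibitory SMAD that acts mainly on the BMP branch. Its site lay 23.2 kb upstream of the start (chromosome 9, 64045078 to 64045360), near the edge of the 25 kb limit, and held 2.53 tags in untreated cells, 22.4 after 1 h and 28.6 after 12 h. With a log2 ratio of 0.35 (0.09 to 0.62) it was the member site with the highest 12 h signal relative to 1 h. Smad3 had 10.5 tags at 1 h in a site 3.03 kb downstream of its start, against 1.64 in untreated cells, a fold of 6.39. Smad2 had 13.1 tags at 1 h in a site inside its span, against 0.253 in untreated cells, a fold of 52.0. Neither was listed at 12 h. The fold at Smad2 rests on 2 raw tags in the untreated library. Smad1, Smad4, Smad5, Smad7 and Smad9 had no site within 25 kb. The peak nearest to Smad7 was a different one at each time, and both were nearest to Ctif. It lay 52.4 kb away with 8.18 tags at 12 h, and 97.7 kb away with 13.7 tags at 1 h.

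Among the other inhibitors none of 6 had a site at 12 h and 2 had one at 1 h. Ski, a SMAD corepressor gene, had one site inside its span with 9.72 tags at 1 h and one 15.5 kb upstream of its start with 11.3. In the untreated library the site inside Ski held no whole tag (the file gives 0.5), so that the 1 h signal was at least 25.7-fold higher than a floor of 3 tags in that library. The upstream site held 0.884 tags in untreated cells. Smurf1, a ubiquitin ligase gene whose product marks SMADs and receptors for degradation, held 9.39 tags at 1 h against 1.52. Smurf2, Skil, Tgif1 and Bambi had none within 25 kb. For Smurf2 a site 41.0 kb away, nearest to Kpna2, held 51.6 tags at 12 h and 83.6 at 1 h.

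The Id genes, which encode dominant negative partners of basic helix-loop-helix factors and are textbook targets of BMP and SMAD signalling, had a site at 2 of 3 members at 12 h and at 2 of 3 at 1 h. Id3 had one 3.08 kb upstream of its start (chromosome 4, 136140600 to 136140882), with 0.758 tags in untreated cells, 33.0 after 1 h and 22.9 after 12 h. The log2 ratio was -0.53 (-0.78 to -0.27). A second Id3 site 20.6 kb upstream held 17.0 tags at 1 h against 1.14 in untreated cells and was not listed at 12 h. Id2 had 8.72 tags at 1 h in a site 1.53 kb upstream of its start, against 1.14 in untreated cells, the fewest tags of any member site. Id1 had a site of 10.8 tags at 12 h alone, 4.22 kb from its span, against 1.01 in untreated cells. Its local fold of 6.09 only just passed the required 6. The 1 h peak nearest to Id1, 48.4 kb away and nearest to Bcl2l1, held 288 tags.

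**Figure D2:**
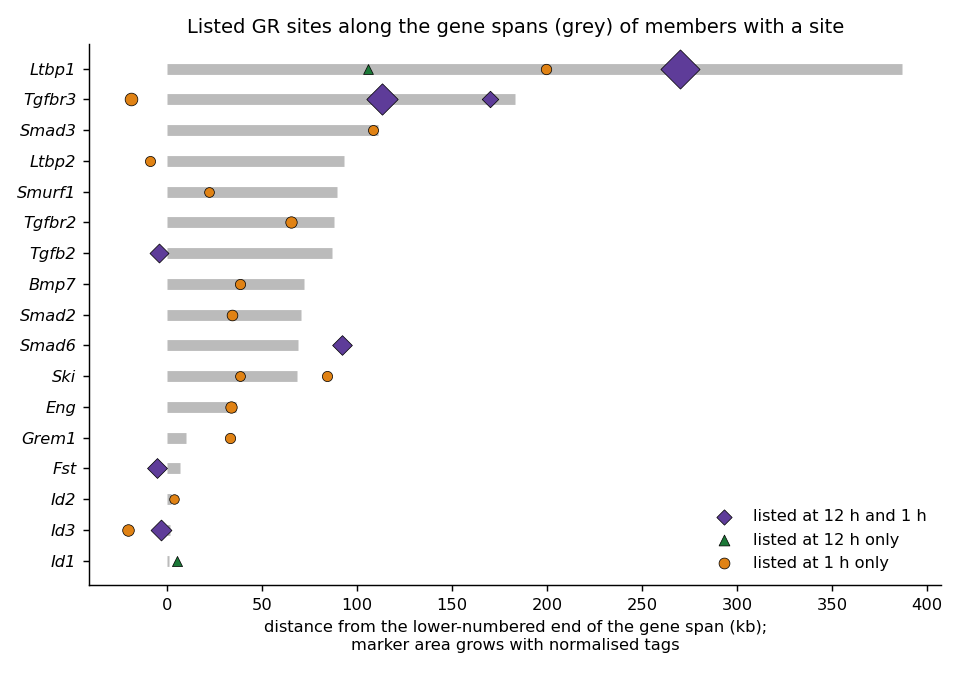
Listed GR sites along the 17 members with a site, as distance in kb from the lower-numbered end of each gene span (grey bars). Diamonds mark sites listed at 12 h and 1 h, triangles sites listed at 12 h alone and circles sites listed at 1 h alone, and marker area grows with normalised tags. The strongest sites, of Ltbp1 and Tgfbr3, lie inside long spans of 387 and 183 kb, whereas the sites of the short genes Fst, Id1, Id2 and Id3 lie outside them.

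At the 7 sites in both lists, the 12 h library held fewer tags at 5 and more at 2, with a median log2 ratio of -0.26. Counting intervals lay wholly below 0 at 4 sites (Tgfb2, Id3, Fst and Ltbp1), wholly above 0 at 2 (Smad6 and Tgfbr3) and held 0 at 1. Over all 2436 shared sites 77.2% held fewer tags at 12 h and 22.8% more, the intervals lay wholly below 0 at 61.8% and wholly above 0 at 11.5%, and the median was -0.49. Relative to that median, 5 of the 7 member sites lay above it, and Tgfb2 and Id3 below it, with a centred ratio of -0.03 at Id3. This depended on the distance allowed, since the 20 shared sites within 100 kb of a member had a median of -0.58, below that of all shared sites. When tags were divided by window width, which was 302 bp at 12 h and 282 bp at 1 h, the intervals of the Smad6 and Tgfbr3 sites that lay above 0 came to include it, and that of the weaker Tgfbr3 site came to lie below 0.

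Because the ratio divides by the 1 h value, each member site was also set beside the shared sites of like strength at 1 h, within 1.2-fold. Peaks listed at 1 h alone have no ratio and are left out. The percentages below thus hold among shared sites, not among all 1 h peaks of like strength. Around the main Tgfbr3 site there were 224 such sites with a median log2 ratio of -0.86, and 93.3% of them had a lower ratio than Tgfbr3. Around the Ltbp1 site there were 90, with a median of -0.86, of which 83.3% were lower. Smad6 stood above 90.4% of 458 like sites, whose median was -0.47. Tgfb2 lay at the other end, with 19.5% of 473 like sites lower. Id3, Fst and the weaker Tgfbr3 site were near the middle, with 57.0%, 62.0% and 51.2% of like sites lower. The strongest member sites, inside Ltbp1 and Tgfbr3, thus had higher ratios than most shared sites of like strength, as a description of these 2 libraries.

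**Figure D3:**
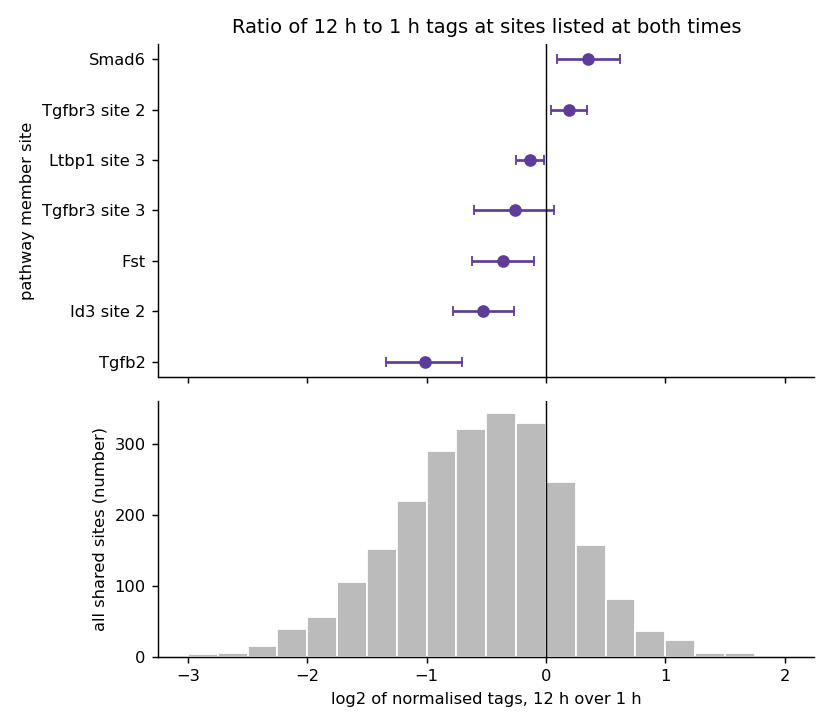
Upper panel, log2 ratio of normalised tags, 12 h over 1 h, at the 7 member sites in both lists, with exact binomial 95% counting intervals. Lower panel, the same ratio at all 2436 shared sites, as the number of sites per bin of 0.25, with the outermost bins holding values beyond the axis. Member ratios run from -1.01 at Tgfb2 to 0.35 at Smad6, and most shared sites lie below 0.

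Of the 21 member sites at 1 h, 7 were listed at 12 h (33.3%), against 43.2% of all 1 h peaks. In the other direction 7 of the 9 member sites at 12 h were listed at 1 h (77.8%), against 84.5% of all 12 h peaks. The 14 sites listed at 1 h alone were weak, with 8.72 to 22.0 tags and a median of 11.6, against a median of 29.3 at 1 h for the 7 in both lists. To be listed a peak had to reach a score of 75, a 6-fold excess over the untreated library and a 6-fold excess over the surrounding 10 kb. The margin of a peak is the smallest of these 3 values divided by its minimum. Member sites in both lists had 1 h margins of 1.48 to 6.85 (median 2.97), and those at 1 h alone 1.02 to 2.09 (median 1.27). Over all peaks the corresponding medians were 2.55 and 1.33. Of the 1 h peaks with a margin under 1.5, 18.6% were listed at 12 h, and 1 of the 11 member sites there (Smad6) was. Between 1.5 and 2 it was 39.2% of all peaks and 0 of 3 member sites. Between 2 and 3 it was 59.2% and 3 of 4, between 3 and 5 it was 84.0% and the 1 member site there, and at 5 or more 95.6% and both member sites.

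**Figure D4:**
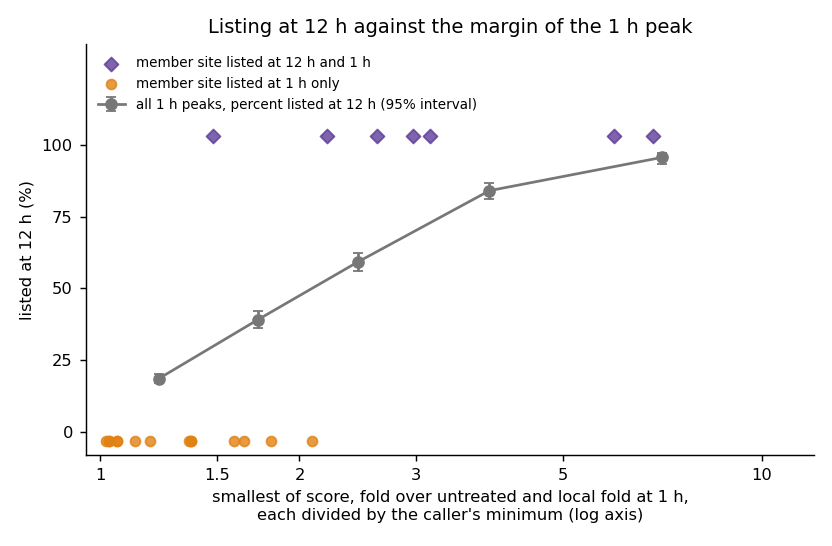
Share of all 1 h peaks that were listed at 12 h (grey, with Wilson 95% intervals) against the margin of the 1 h peak, which is the smallest of its score, fold over untreated cells and local fold, each divided by the caller's minimum (log axis, points at bin centres). Diamonds at the top are member sites listed at 12 h and 1 h, circles at the bottom member sites listed at 1 h alone. The circles all lie at margins of 2.09 or less.

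Absence from the 12 h list is not a measured loss of signal, since no 12 h tags are given for unlisted sites, and a loss was not tested. A listing at 12 h also required a fold over the untreated library. At Eng 15.9 tags would have been needed at 12 h to pass the fold over the untreated count of the 1 h window, or 98.2% of the tags held at 1 h, and at Grem1, Smurf1, the 1 h site of Ltbp1 and Smad3 it was 97.1%, 96.8%, 93.9% and 93.8%. These were the 5 of the 14 sites listed at 1 h alone that needed over 80%. The others had more room, from 79.8% at Id2 to 40.9% at the second Id3 site. No peak of the 12 h list held fewer than 6.96 tags, which is 40.9% of the 1 h tags of that Id3 site and 43.0% of those of Tgfbr2. An unlisted site can also have missed the local fold, for which no 12 h value is given.

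RefSeq promoter sequences (build GRCm38.p6, the assembly of mm10) were matched for 30 of the 42 members, with 40 windows. No listed peak overlapped any of these 40 windows, and members without a window were not examined. The share of all promoter windows that a peak overlapped was not counted, so this is not a result about the members. The 250 bases before each start were searched on both strands for the GR half-site AGAACA and for the looser full element ACANNNTGT, which reads the same on both strands. The half-site was found in 3 of the 40 member windows (7.5%), against 16.1% of 32851 windows of all genes, and the full element in 1 (2.5%), against 5.84%. Those windows belong to 27025 genes, a larger set than the protein-coding genes counted above, and were not matched on base composition. Overlapping matches of both occurred in 0.414% of all windows. The windows with the half-site belonged to Bmpr2, Smad6 and Tgif1 and the one with the full element to Smad9. Windows are shown for the members with a GR site at both times, since their start regions can be set against sites that lie kilobases away; Id3, Ltbp1, Smad6 and Tgfb2 were matched, and Fst and Tgfbr3 were not. Each runs 5′ to 3′ along the gene's strand and ends at the base before the start. Capitals mark the half-site match in Smad6, which is in reverse complement there and whose first base lies 76 bases before the start; the other windows hold neither motif. Ltbp1 has 2 starts, and its main site lies 96.8 kb downstream of the second.
Id3, chr4:136143572-136143821, plus strand: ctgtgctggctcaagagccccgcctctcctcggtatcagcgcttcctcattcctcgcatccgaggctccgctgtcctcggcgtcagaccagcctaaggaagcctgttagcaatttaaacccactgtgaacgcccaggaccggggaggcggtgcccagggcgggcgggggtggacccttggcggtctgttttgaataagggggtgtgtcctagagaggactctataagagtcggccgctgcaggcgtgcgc
Ltbp1 first start, chr17:75005279-75005528, plus strand: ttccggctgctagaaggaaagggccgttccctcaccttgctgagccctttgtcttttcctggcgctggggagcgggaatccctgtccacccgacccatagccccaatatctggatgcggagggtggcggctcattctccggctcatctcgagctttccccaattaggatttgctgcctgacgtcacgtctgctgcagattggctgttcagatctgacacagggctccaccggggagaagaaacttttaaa
Ltbp1 second start, chr17:75178531-75178780, plus strand: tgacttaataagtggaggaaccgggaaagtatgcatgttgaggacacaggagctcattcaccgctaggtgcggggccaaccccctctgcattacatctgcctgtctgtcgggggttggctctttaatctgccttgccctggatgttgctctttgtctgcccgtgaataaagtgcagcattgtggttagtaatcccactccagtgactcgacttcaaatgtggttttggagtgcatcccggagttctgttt
Smad6, chr9:64022060-64022309, minus strand: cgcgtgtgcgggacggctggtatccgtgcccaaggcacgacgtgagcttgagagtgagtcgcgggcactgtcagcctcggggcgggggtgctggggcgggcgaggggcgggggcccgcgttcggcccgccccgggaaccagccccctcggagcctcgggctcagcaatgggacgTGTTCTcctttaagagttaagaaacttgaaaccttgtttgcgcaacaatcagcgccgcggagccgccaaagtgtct
Tgfb2, chr1:186705990-186706239, minus strand: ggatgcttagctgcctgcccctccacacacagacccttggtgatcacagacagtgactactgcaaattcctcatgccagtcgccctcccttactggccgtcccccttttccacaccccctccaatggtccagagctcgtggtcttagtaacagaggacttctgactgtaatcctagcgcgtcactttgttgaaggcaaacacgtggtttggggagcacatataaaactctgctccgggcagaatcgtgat
The share of G and C in these windows was 62.8% for Id3, 56.8% and 50.8% for the starts of Ltbp1, 66.8% for Smad6 and 53.6% for Tgfb2. The sequences of the listed peaks themselves were not used here.

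A second list of 80 further genes of the family (other ligands, activating proteases, integrins, antagonists, SMAD regulators and targets) was read in the same way. It too was chosen with earlier results of these data known. Of these 80 genes, 19 had a 12 h peak (23.8%), against 9.22% of all protein-coding genes. A 1 h peak was listed for 26 (32.5%), against 16.9%. Peaks were listed at both times for 17 (8.63% of all genes), at 12 h alone for 2 (Fmod and Tgfbrap1, 0.599%) and at 1 h alone for 9 (8.27%). Counts at the shares of the span classes are not given here for these genes. Per megabase of gene windows, the 42 members had 1.8 peaks at 12 h and 4.19 at 1 h, the 80 further genes 3.01 and 5.18, and all protein-coding genes 1.22 and 2.46. At the 20 shared sites of the further genes the 12 h library held fewer tags at 19, with a median log2 ratio of -0.60. The exception, named after its value was seen, was a site of Pmepa1 with 0.02 (-0.37 to 0.41). Whether the 7 member sites differ from these was not tested.

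The further genes with most tags at a 1 h site included 5 that had that site in both lists, each with fewer tags at 12 h. They were picked for their 1 h tags, by which the ratio divides, so the choice itself favours low ratios. Of all shared sites 77.2% also held fewer tags at 12 h. These 5 sites were not set beside shared sites of like strength. Runx3, a SMAD partner transcription factor gene, held 1.01 tags in untreated cells, 162 after 1 h and 40.4 after 12 h at a site 11.9 kb from its span (chromosome 4, 135189770 to 135190052), a log2 ratio of -2.00 (-2.17 to -1.84). Itgb6 encodes a subunit of the integrin that activates latent TGF-beta. Its site inside the gene (chromosome 2, 60700145 to 60700427) held 2.27, 160 and 33.4 tags in the same order, a ratio of -2.26 (-2.44 to -2.09). Furin, which encodes the protease that cleaves the ligand precursors, had 4.29, 107 and 60.8 tags at a site 13.8 kb from its span, where Fes was the nearest gene (-0.81, -0.96 to -0.66). Nedd4l, a ubiquitin ligase gene acting on SMADs, had 2.02, 94.0 and 26.3 tags (-1.84, -2.04 to -1.63). Fbn1, the fibrillin gene, had 1.64, 59.7 and 18.1 tags at a site 24.4 kb from its span, where Cep152 was the nearest gene (-1.72, -1.98 to -1.47). Fmod held 7.37 tags and Tgfbrap1 11.4 at 12 h, against 0.253 and 1.39 in untreated cells.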

How the data were processed

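GR ChIP-seq peak lists of 3 of the 4 labelled samples were used; the genomic input sample was not used here. The submitters' processing notes name mm10 and the tools bcl2fastq 2.17, Bowtie2 2.2.6 and HOMER. Per the file headers, findPeaks of HOMER was run on each library by itself (factor style) with an FDR of 0.001, a threshold of 75, 6-fold over the control and over the local 10 kb, and a Poisson p-value of 0.0001. The control was the untreated ChIP library for both treated lists and an input for the untreated list, per the file headers. Library totals were 79203826 tags for untreated cells, 90556119 at 1 h and 97749688 at 12 h.

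The normalised tag count, a signal scaled to 10000000 tags, was deposited by the authors. The score, the fold ratios over control and local region, and the focus fraction are the caller's values as deposited; the focus fraction and the deposited p-values were not used in a comparison, and the score served only within a list. Control tags in the treated lists are raw tags of the untreated library. The deposited treated tag counts, scaled to the untreated library, were scaled back and came out whole (tolerance 0.1 tag) for 100% of peaks; the deposited count of the untreated peak was not used. The untreated list holds 1 peak, near no member.

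Gene spans came from the RefSeq table of GRCm38.p6. Peaks were paired by 1 bp of overlap. Tag ratios have exact Clopper-Pearson 95% intervals; with no molecular identifiers, reads are not independent molecules, and the intervals hold for counting error alone. Scripts (Python 3.11.15, pandas 2.3.3, scipy 1.17.1) were tested on simulated data. The members, both gene lists and the comparisons were chosen with earlier results of these data known. Every member was to be named, and of the 80 further genes the 6 with most tags at 1 h and those with a peak at 12 h alone; 1 of these is not reported here. Promoter windows printed are those of members in both lists, a narrower choice than the planned one by tag count.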

Additional observations from a re-analysis of the deposited data

How the results depend on the processing

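The number of members with a peak depended on the distance allowed. Within 100 kb it was 13 (31.0%) at 12 h and 29 (69.0%) at 1 h, against 22.3% and 37.4% of all protein-coding genes, and with the centre inside the span 2 (4.76%) and 9 (21.4%), against 4.02% and 7.54%. The shares of the span classes gave 10.9 and 17.9 members within 100 kb, and 3.28 and 5.89 inside the span. The 12 h counts lay within a few members of those of the span classes, and no difference is read from them. For the 80 further genes the counts were 32 (40.0%) and 44 (55.0%) within 100 kb and 10 (12.5%) and 11 (13.8%) inside the span. Peaks at or above the median score of each list lay near 5 members and 12 further genes at 12 h and near 6 and 20 at 1 h, against 4.96% of all genes at 12 h and 9.24% at 1 h. Counts within 10 kb, and to the nearest gene alone, stayed within 1.5 times those reported. Centring ratios on the median of all shared sites turned the member median to 0.23, and single sites to 0.14 (Fst), 0.36 (Ltbp1) and 0.23 (the weaker Tgfbr3 site), which follows from subtracting a negative median. Under the other alternatives the member median stayed below 0, at -0.25 to -0.58. The lowest value was that of the 20 shared sites within 100 kb, and it lay below the median of all shared sites, -0.49. Median folds over the untreated library, 16.4 at 12 h and 12.7 at 1 h, were 17.8 and 18.6 within 10 kb and 15.1 and 11.3 with 1 tag added to both counts. No paired analysis was possible because each condition has 1 library. Sites of under about 10 tags rest on some 100 raw tags or fewer, and 1 library per condition gives no replicate check.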
